A study of Mus musculus with 42 samples.

Results

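The genes described here are 34 genes of synaptic vesicle release and recycling, listed by name and followed across the 3 genotypes of the study, out of 52636 gene lines in the count files. They were taken in 4 roles: 14 genes for vesicle proteins, 7 for SNAREs and their cofactors, 8 for the active zone and 5 for endocytosis. At a presynaptic terminal, vesicles filled with transmitter dock at the active zone, where the vesicle SNARE synaptobrevin zips up with syntaxin and SNAP-25 on the plasma membrane. Calcium binding to synaptotagmin triggers fusion, the ATPase NSF takes the spent SNARE complexes apart, and the vesicle membrane is retrieved through coats and dynamin and stripped of its coat by synaptojanin. Cortical neurons in culture switch these genes on together as they form synapses, so the genes are widely used as a readout of presynaptic maturation.

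The study compared euploid mice, Ts65Dn mice, which carry an extra chromosome holding a segment that corresponds to human chromosome 21, and Ts65Dn;Brwd1+/- mice, in which Brwd1, itself triplicated, carries the repro5 mutant allele on 1 copy. All genotypes share a mixed DBA/2J x B6EiC3Sn/J background. RNA was sequenced from primary neuronal cultures of E16 forebrain, with 3 libraries for each genotype, labelled as pooled male and female and grown with AraC, which stops dividing glia. SMARCA2/4, the ATPases of the BAF chromatin remodelling complex, were mapped by ChIP-seq in adult male hippocampus (6 to 8 weeks of age). There were 4 samples for each genotype, with tissue of a pair of animals pooled in each sample. Open chromatin was mapped by ATAC-seq in sorted neuronal nuclei of adult male hippocampus, with 3 samples for each genotype. The question asked of the 34 genes is how their RNA differed between the genotypes, and which of them carried SMARCA2/4 or open chromatin peaks.

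Library depth ran from 17270070 to 25892802 counts assigned to genes, and 17173 genes passed the filter on low counts. Of the 34 genes 32 were tested. Rab3a was listed at 0 counts in all 9 libraries, and Rims1 at 0 to 20 counts. Whether their RNA was absent from the cultures cannot be told from these counts. The label check did not hold for every library. CPM are counts scaled to the same library size after adjustment by TMM factors. Brwd1 was at 85.9 to 93.2 CPM in euploid and 125.1 to 129 CPM in Ts65Dn. In the libraries labelled Ts65Dn;Brwd1+/- it was at 124 to 146 CPM (log2 fold change 0.13, adjusted p = 0.186 vs. Ts65Dn). The libraries labelled Ts65Dn;Brwd1+/- also held 1409 to 1982 CPM of Xist, against at most 1.12 CPM in the other libraries, and 0.0557 to 0.149 summed CPM of 4 Y-linked genes, against 194 to 223 CPM in euploid and 207 to 216 CPM in Ts65Dn. Sex by these markers and the Ts65Dn;Brwd1+/- label therefore cannot be told apart in the cultures. Of the tested genes only Syn1 and Syp lie on the X chromosome. Ts65Dn replicate 3 stood apart: it held the lowest CPM of the 9 libraries for all 32 tested genes. Values without it are given where they bear on a result.

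Vesicle cycle RNAs were lower in Ts65Dn cultures in every role. Against euploid, 29 of the 32 tested genes were lower at an adjusted p under 0.05 (edgeR quasi-likelihood test, Benjamini-Hochberg over all genes), none was higher, and 3 did not pass. Over all genes tested 46.7% passed in either direction, 21.1% lower and 25.6% higher. The median log2 fold change of the 32 genes was -1.21, from -1.62 for Synpr to 0.45 for Syt2, beside a median of 0.04 over all genes. The 3 genes that did not pass were Syt2, Vamp1 and Synj1. For 30 of the 32 genes each Ts65Dn library lay below each euploid library, a pattern found in 25.5% of all genes tested. A fall of more than 1 on the log2 scale was called for 25 of the 32 genes and for 7.13% of all genes. Without Ts65Dn replicate 3 it was called for 9 of the 32 genes, and the share of all genes was not counted in that fit. Leaving out that library gave 28 genes lower, 1 higher (Syt2) and a median of -0.87, where 38.2% of all genes passed in either direction. Measured against the euploid mean, the median gene stood at -0.78 in Ts65Dn replicate 1, -0.96 in replicate 2 and -2.23 in replicate 3 on the log2 scale.

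In the libraries labelled Ts65Dn;Brwd1+/- nearly all of these genes were higher than in Ts65Dn. Of the 32 genes 30 were higher and none lower, with a median log2 fold change of 1.12, where 58.1% of all genes passed, 27.6% higher and 30.5% lower. For 30 of the 32 genes each Ts65Dn;Brwd1+/- library lay above each Ts65Dn library, as it did for 33.6% of all genes. Being lower in Ts65Dn and higher again in Ts65Dn;Brwd1+/- was the pattern of 29 of the 32 genes and of 16.8% of all genes tested. Taking only genes lower in Ts65Dn, it held for all 29 members and for 79.7% of the 3627 such genes. Without Ts65Dn replicate 3 the median was 0.81 and 30 genes were still called higher, where 51.6% of all genes passed in either direction. Against euploid, 2 genes were higher, Synpr and Synj1, none was lower and 30 did not pass, with a median of -0.09, beside 29.2% of all genes called, 14% higher and 15.2% lower. The libraries did not overlap for 7 genes, 6 of them higher (Syn3, Synpr, Syt2, Syt7, Rims2 and Synj1) and 1 lower (Nsf), against 22.3% and 23.6% of all genes. Without Ts65Dn replicate 3, or with only euploid and Ts65Dn;Brwd1+/- fitted, 5 genes passed, as Nsf, Syt2 and Syn3 were then also called. The share of all genes called rose as well, to 33% and 32.7% in these fits. With a residual factor (RUVr) 9 passed, 5 of them higher (Synpr, Synj1, Syn3, Syt2 and Syt7) and 4 lower (Syn2, Syt1, Nsf and Erc2, adjusted p from 0.0131 to 0.0415), where 38.9% of all genes passed. That factor is drawn from the residuals of the same genotype fit. It takes up spread within genotypes by construction, so calls gained with it, here and below, are not independent support. Comparisons of Ts65Dn with each other genotype share the Ts65Dn libraries, so a low Ts65Dn library enters both. Without Ts65Dn;Brwd1+/- replicate 1 the calls against Ts65Dn fell to 24, with Syp, Sv2b, Syt4, Rab3c, Snap25 and Stx1a no longer passing (adjusted p from 0.055 to 0.0939). Calls over all genes fell too, from 58.1% to 48.7%. Leaving aside the X-linked Syn1 and Syp, 27 of 30 genes were lower in Ts65Dn vs. euploid and 28 of 30 were higher in Ts65Dn;Brwd1+/- vs. Ts65Dn.

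**Figure D1:**
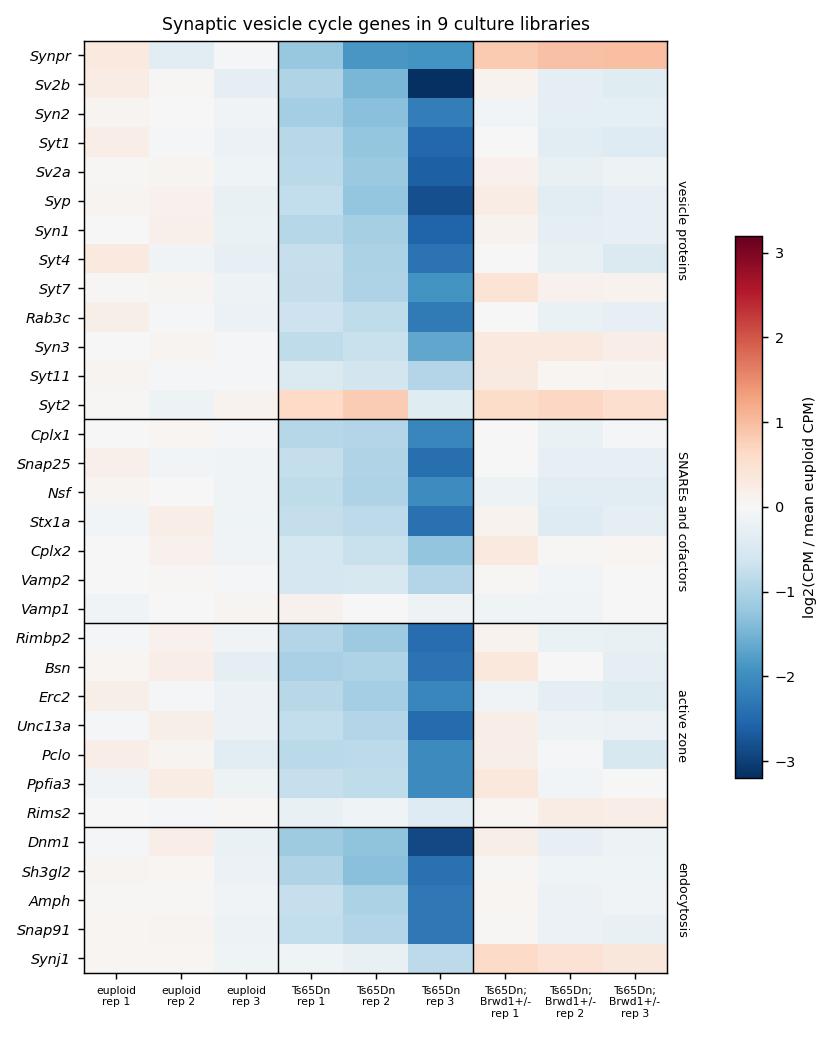
Each cell is the log2 ratio of the CPM in 1 culture library to the mean CPM of the 3 euploid libraries, for the 32 tested genes (rows, by role) and the 9 libraries (columns). The Ts65Dn columns are blue for nearly every gene and darkest in replicate 3, while Vamp1, Syt2, Rims2 and Synj1 stand out as the palest or reddest rows there.

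Markers of the cells in the dish moved with the vesicle genes. For comparison, 21.1% of all genes tested were lower and 25.6% higher in Ts65Dn vs. euploid. In Ts65Dn;Brwd1+/- vs. Ts65Dn 27.6% were higher. Of 15 pan-neuronal markers 12 were lower and none higher in Ts65Dn vs. euploid, with a median log2 fold change of -1.22, and 12 were higher in Ts65Dn;Brwd1+/- vs. Ts65Dn, with a median of 1.06. Their summed level was 5166 to 6102 CPM in euploid, 3326, 2989.6 and 1325 CPM in Ts65Dn replicates 1 to 3, and 5309 to 6699.9 CPM in Ts65Dn;Brwd1+/-. The summed CPM of the vesicle genes divided by that of the pan-neuronal markers was 1.43 to 1.44 in euploid, 1.48, 1.47 and 1.71 in Ts65Dn replicates 1 to 3, and 1.35 to 1.41 in Ts65Dn;Brwd1+/-. The sum rests on its most abundant genes: in an alternative chosen after seeing the data, leaving out Vamp2 and Syt11, the ratio was 1.15 to 1.17 in euploid, 1.15, 1.12 and 1.10 in Ts65Dn replicates 1 to 3 and 1.06 to 1.12 in Ts65Dn;Brwd1+/-. The order of Ts65Dn and euploid thus turned with these 2 genes. In bulk RNA of this kind, fewer neurons and less RNA per neuron cannot be told apart. Glutamatergic markers were lower for 9 of 10 genes (median -1.30) and GABAergic markers for 11 of 11 (median -1.61). GABAergic markers summed to 589 to 649 CPM in euploid and 1016 to 1126 CPM in Ts65Dn;Brwd1+/-. There 7 of 11 were higher than in euploid, beside 14% of all genes.

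Non-neuronal lists ran the other way in part. Each holds at most 10 genes, and 25.6% of all genes tested were higher and 21.1% lower in Ts65Dn vs. euploid. The 10 radial glia and progenitor markers summed to 3413 to 4043 CPM in euploid, 6189 to 8025 CPM in Ts65Dn and 2513 to 2945 CPM in Ts65Dn;Brwd1+/-, with 5 genes higher and 4 lower in Ts65Dn vs. euploid and Vim, the intermediate filament vimentin, holding most of the sum. Fibroblast and vascular markers, of which 9 of 10 were tested, summed to 399.7 to 493 CPM, 1587 to 2239.8 CPM and 263 to 338 CPM in the same order, with 5 higher and 3 lower. Acta2 and Kdr held most of that sum, while the endothelial marker Cldn5 was at 0 in every library. All 10 proliferation markers were higher in Ts65Dn vs. euploid (265 to 277 CPM summed in euploid, 354 to 416 CPM in Ts65Dn), and their sum was highest, 586 to 605 CPM, in Ts65Dn;Brwd1+/-. Astrocyte markers were higher for 5 and lower for 2 of 10 genes, with overlapping sums (3547 to 4387 CPM in euploid, 4142 to 4822 CPM in Ts65Dn). Oligodendrocyte lineage markers were higher for 2 and lower for 1 of 9, and microglia markers higher for 1 and lower for 2 of 6. In Ts65Dn;Brwd1+/- vs. Ts65Dn 7 oligodendrocyte markers were higher and 2 lower, and 5 microglia markers were lower. Astrocyte markers were higher for 3 and lower for 6 there, beside 27.6% and 30.5% of all genes. Against euploid, Ts65Dn;Brwd1+/- had 6 oligodendrocyte markers higher and 2 lower, and 5 microglia markers lower. Of all genes 14% were higher and 15.2% lower. The part these cell markers have in the vesicle gene result was not tested.

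**Figure D2:**
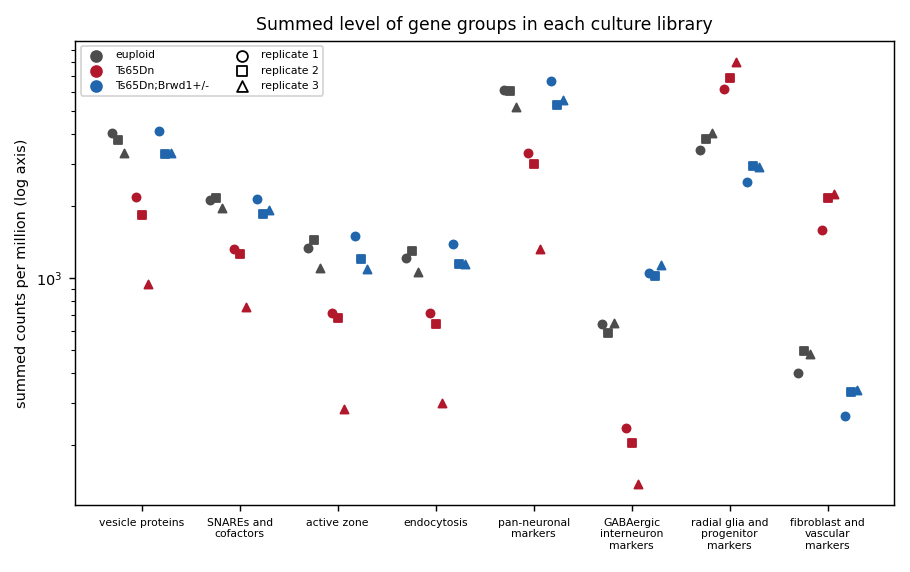
Points are the summed CPM (log axis) of each gene group in each culture library, grey for euploid, red for Ts65Dn and blue for Ts65Dn;Brwd1+/-, with the marker shape giving the replicate number. The 4 vesicle roles, the pan-neuronal and the GABAergic markers sit lowest in Ts65Dn and lowest of all in its replicate 3, while the radial glia and fibroblast sums sit highest in Ts65Dn.

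Vesicle proteins had the lowest median of the 4 roles in Ts65Dn vs. euploid, -1.34, beside -1.17 for SNAREs and cofactors, -1.23 for the active zone and -1.21 for endocytosis. Of the 13 tested genes of this role 12 were lower in Ts65Dn vs. euploid, 12 were higher in Ts65Dn;Brwd1+/- vs. Ts65Dn, and 1, Synpr, was higher than euploid in Ts65Dn;Brwd1+/-. Synpr, which encodes the vesicle membrane protein synaptoporin, was at 57.2, 36.1 and 44.6 CPM in euploid, 19.8, 12.7 and 12.1 CPM in Ts65Dn and 81.6, 87.7 and 90.04 CPM in Ts65Dn;Brwd1+/-. The 3 genotypes did not overlap, and the order ran Ts65Dn, euploid, Ts65Dn;Brwd1+/-. Its log2 fold change was -1.62 ± 0.20 (SE, 3 libraries a group, adjusted p = 0.000239) in Ts65Dn vs. euploid, 2.53 ± 0.21 (adjusted p = 6.58e-06) in Ts65Dn;Brwd1+/- vs. Ts65Dn and 0.91 ± 0.19 (adjusted p = 0.00585) in Ts65Dn;Brwd1+/- vs. euploid. Synpr and Synj1 were the 2 members to pass in Ts65Dn;Brwd1+/- vs. euploid with all 9 libraries fitted. Sv2b, a transporter-like vesicle glycoprotein, was at 172, 149 and 118 CPM in euploid, 75.5, 52.9 and 14.8 CPM in Ts65Dn and 159, 120.0 and 111 CPM in Ts65Dn;Brwd1+/-. Ts65Dn replicate 3 was far below its 2 companions, and Ts65Dn did not overlap either other group. The fall was 3.06-fold (adjusted p = 0.0129), with the widest error of the role at 0.44 on the log2 scale.

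Syn2, a synapsin that tethers vesicles into the reserve pool, was at 324, 310.1 and 283 CPM in euploid, 144, 121 and 65.6 CPM in Ts65Dn and 285, 245 and 250.5 CPM in Ts65Dn;Brwd1+/-. Here the Ts65Dn libraries lay closer together than for Sv2b, again below all others. Syn2 was 2.78-fold lower in Ts65Dn than in euploid (adjusted p = 0.000766) and 2.37-fold higher in Ts65Dn;Brwd1+/- than in Ts65Dn (adjusted p = 0.00102). Syt1, the calcium sensor for fast release, was at 703, 575 and 532 CPM in euploid, 324, 256 and 105 CPM in Ts65Dn and 609, 467 and 450.4 CPM in Ts65Dn;Brwd1+/-. Its euploid and Ts65Dn;Brwd1+/- libraries overlapped and its Ts65Dn libraries lay apart, 2.64-fold below euploid (adjusted p = 0.00635). The remaining lower vesicle genes had log2 fold changes of -1.38 for Sv2a and for Syp (synaptophysin), -1.34 for Syn1, -1.21 for Syt4, -1.14 for Syt7, -1.09 for Rab3c, -1.003 for Syn3 and -0.64 for Syt11. Of these, Syp no longer passed without euploid replicate 2 (adjusted p = 0.051), nor Syt4 and Rab3c without euploid replicate 1 (adjusted p = 0.0589 and 0.0604).

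Synaptotagmin family members had log2 fold changes of different size, in values chosen after they were seen. The difference between them was not tested. Syt11, which does not bind calcium, was at 850.2, 782 and 758 CPM in euploid and 581, 530.1 and 419 CPM in Ts65Dn, 1.56-fold lower (adjusted p = 0.00255), so its groups did not overlap although its fall was the smallest of the called vesicle genes. Per kilobase of exon, Syt11 stood at 1.94 to 2.28 times Syt1 in euploid, 2.87, 3.31 and 6.37 times in Ts65Dn replicates 1 to 3, and 2.56 to 3.03 times in Ts65Dn;Brwd1+/-. Syt2, the fast sensor of hindbrain and some inhibitory synapses, was low everywhere, at 2.48, 2.15 and 2.59 CPM in euploid, 3.76, 4.25 and 1.85 CPM in Ts65Dn and 3.61, 3.79 and 3.51 CPM in Ts65Dn;Brwd1+/-. Ts65Dn replicates 1 and 2 were above euploid and replicate 3 below it. All Ts65Dn;Brwd1+/- libraries were above the euploid libraries. None of its comparisons passed (log2 fold change 0.45 ± 0.26, adjusted p = 0.188 in Ts65Dn vs. euploid), but without Ts65Dn replicate 3 it was called higher in Ts65Dn, at 0.73 (adjusted p = 0.00414). In Ts65Dn;Brwd1+/- vs. euploid it was at 0.59 (adjusted p = 0.115), and it passed without Ts65Dn replicate 3 (0.59, adjusted p = 0.0103), with only the 2 genotypes compared in the fit (adjusted p = 0.014) and with a residual factor (adjusted p = 0.0269).

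SNAREs and cofactors were lower for 6 of 7 genes in Ts65Dn vs. euploid and higher for 6 of 7 in Ts65Dn;Brwd1+/- vs. Ts65Dn, and none passed against euploid in Ts65Dn;Brwd1+/- with all 9 libraries and no residual factor. Cplx1, a complexin that clamps the part-assembled SNARE complex, was at 221, 233 and 214 CPM in euploid, 119, 117 and 52 CPM in Ts65Dn and 220.2, 191 and 213 CPM in Ts65Dn;Brwd1+/-. The fall was 2.32-fold (adjusted p = 0.00329) and every Ts65Dn library lay below every other. Snap25, the plasma membrane SNARE, was at 299, 252 and 248 CPM in euploid, 158, 137 and 50.4 CPM in Ts65Dn and 266, 222 and 222 CPM in Ts65Dn;Brwd1+/-. The log2 fold change was -1.21 ± 0.32 (adjusted p = 0.012), and the libraries did not overlap between Ts65Dn and either other genotype.

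Nsf, the ATPase that recycles SNAREs, was at 352, 336 and 306 CPM in euploid, 189.9, 167 and 82 CPM in Ts65Dn and 298, 259 and 261 CPM in Ts65Dn;Brwd1+/-. It was the 1 member whose Ts65Dn;Brwd1+/- libraries all lay below the euploid libraries, though that difference did not pass (log2 fold change -0.28 ± 0.24, adjusted p = 0.428). It passed without Ts65Dn replicate 3 (-0.28, adjusted p = 0.0325), with only the 2 genotypes compared in the fit (-0.29, adjusted p = 0.0334) and with a residual factor (-0.28, adjusted p = 0.0131). Its fall in Ts65Dn vs. euploid was 2.27-fold (adjusted p = 0.00345). Stx1a, syntaxin 1A, was at 179, 219.8 and 173 CPM in euploid, 112, 106 and 36.4 CPM in Ts65Dn and 204, 143 and 157 CPM in Ts65Dn;Brwd1+/-. It fell 2.25-fold in Ts65Dn vs. euploid (adjusted p = 0.0172), a call lost without euploid replicate 2 (adjusted p = 0.0604).

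Of the synaptobrevins Vamp2 was lower in Ts65Dn vs. euploid and Vamp1 did not pass, and both complexins were lower. The difference between paralogues was not tested. Vamp2, the vesicle SNARE of most forebrain synapses, had the highest euploid level of all members per kilobase of exon, 199 ± 6.38 CPM per kb (SD, n = 3). It was at 755, 782 and 734 CPM in euploid, 519.6, 532 and 393 CPM in Ts65Dn and 783, 718 and 756 CPM in Ts65Dn;Brwd1+/-. Ts65Dn lay below both other groups, a 1.57-fold fall (adjusted p = 0.00152) against euploid. Vamp1, the paralogue best known from spinal cord and neuromuscular synapses, was at 21.2, 22.9 and 24.4 CPM in euploid, 25.03, 22.6 and 20.4 CPM in Ts65Dn and 20.6, 21.2 and 22.7 CPM in Ts65Dn;Brwd1+/-. All 3 groups overlapped, and the log2 fold changes were -0.01 ± 0.09, -0.08 ± 0.09 and -0.09 ± 0.09 in Ts65Dn vs. euploid, Ts65Dn;Brwd1+/- vs. Ts65Dn and Ts65Dn;Brwd1+/- vs. euploid (adjusted p = 0.944, 0.509 and 0.543). Cplx2 fell less than Cplx1, 1.76-fold (adjusted p = 0.00294), and per kilobase it stood at 0.545 to 0.591 times Cplx1 in euploid, 0.719, 0.658 and 1.01 times in Ts65Dn replicates 1 to 3 and 0.619 to 0.712 times in Ts65Dn;Brwd1+/-.

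**Figure D3:**
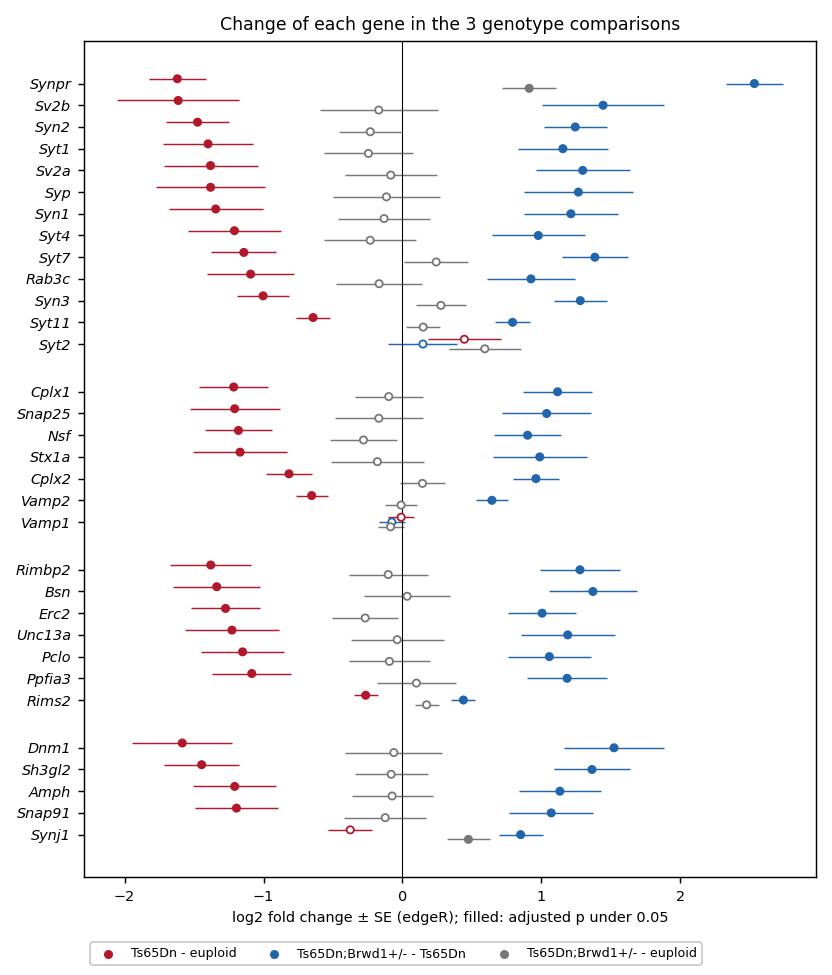
Points are log2 fold changes of the 32 tested genes with their standard errors (bars) in the 3 comparisons, by role, filled where the adjusted p is under 0.05. Red points (Ts65Dn vs. euploid) sit left of 0 for all genes but Syt2, blue points (Ts65Dn;Brwd1+/- vs. Ts65Dn) right of 0 for all genes but Vamp1, and grey points (Ts65Dn;Brwd1+/- vs. euploid) are open except for Synpr and Synj1.

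At the active zone, the protein meshwork where vesicles dock, all 7 tested genes were lower in Ts65Dn vs. euploid and all 7 were higher in Ts65Dn;Brwd1+/- vs. Ts65Dn, and none passed in Ts65Dn;Brwd1+/- vs. euploid, except Erc2 with a residual factor (-0.27, adjusted p = 0.0186). Rimbp2, which links calcium channels to RIM, was at 81.7, 91.9 and 77.6 CPM in euploid, 43.8, 37.1 and 15.6 CPM in Ts65Dn and 90.7, 72.1 and 71.2 CPM in Ts65Dn;Brwd1+/-. It was 2.60-fold lower in Ts65Dn (adjusted p = 0.00386). Bsn, the giant scaffold bassoon, was at 335, 371 and 261 CPM in euploid, 157, 163 and 63 CPM in Ts65Dn and 406, 319 and 265 CPM in Ts65Dn;Brwd1+/-. Euploid itself spread widely here, yet its lowest library was above the highest of Ts65Dn, and the fall was 2.53-fold (adjusted p = 0.00648).

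Erc2, an ELKS family scaffold, was at 135, 114 and 104 CPM in euploid, 63.2, 54.9 and 27.7 CPM in Ts65Dn and 108, 94.7 and 89.96 CPM in Ts65Dn;Brwd1+/-. Its Ts65Dn libraries lay below all others, 2.42-fold under euploid (adjusted p = 0.00242). Unc13a, the vesicle priming factor Munc13-1, was at 373, 436 and 335 CPM in euploid, 221, 199 and 69.3 CPM in Ts65Dn and 439, 340.2 and 335 CPM in Ts65Dn;Brwd1+/-. The fall was 2.34-fold (adjusted p = 0.014), a call that no longer passed without euploid replicate 2 (adjusted p = 0.0502), and the euploid and Ts65Dn;Brwd1+/- libraries overlapped. Pclo (piccolo) and Ppfia3 (a liprin) had log2 fold changes of -1.15 and -1.08. Rims2, the RIM paralogue that could be tested, was the exception in size: 24.997, 24.8 and 26.0 CPM in euploid, 21.3, 22.97 and 18.8 CPM in Ts65Dn and 26.5, 29.6 and 29.4 CPM in Ts65Dn;Brwd1+/-. The groups did not overlap, but its log2 fold change was -0.26 ± 0.09 (adjusted p = 0.0302), and it no longer passed when euploid replicate 1 or 2 or Ts65Dn replicate 1 was left out (adjusted p from 0.0548 to 0.0559) or Ts65Dn replicate 3 (-0.19, adjusted p = 0.116).

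Endocytosis held the triplicated member. Synj1 (ENSMUSG00000022973, on chromosome 16), the phosphatase synaptojanin 1 that uncoats retrieved vesicles, was at 236, 236 and 206 CPM in euploid, 204, 191 and 128 CPM in Ts65Dn and 343, 310.2 and 289.5 CPM in Ts65Dn;Brwd1+/-. The 3 genotypes did not overlap, and the trisomic libraries were the lowest and the highest of the 9. In Ts65Dn vs. euploid the log2 fold change was -0.38 ± 0.16 and did not pass (adjusted p = 0.0732). It passed without the filter on low counts (-0.41, adjusted p = 0.0132), with a residual factor (-0.38, adjusted p = 0.000172), with the replicate number as a block (-0.40, adjusted p = 0.0138) and without Ts65Dn replicate 1 (-0.50, adjusted p = 0.0296). Without Ts65Dn replicate 3 it was at -0.19 (adjusted p = 0.153). In Ts65Dn;Brwd1+/- it was 1.80-fold higher than in Ts65Dn (adjusted p = 0.00113) and 1.39-fold higher than in euploid (adjusted p = 0.0449). The last call was lost with any 1 euploid or Ts65Dn;Brwd1+/- library left out (adjusted p from 0.0797 to 0.187), without Ts65Dn replicate 2 (0.0565) and with RLE size factors (0.0533).

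The other 4 endocytosis genes were all lower in Ts65Dn vs. euploid. How far they differ from Synj1 was not tested. Dnm1, the neuronal dynamin that cuts endocytic vesicles free, was at 373, 449 and 333 CPM in euploid, 175, 158 and 52.3 CPM in Ts65Dn and 442, 323 and 342 CPM in Ts65Dn;Brwd1+/-, a 3.00-fold fall (adjusted p = 0.00538). Sh3gl2, endophilin A1, which recruits synaptojanin to the vesicle neck, was at 77.3, 75.7 and 63.7 CPM in euploid, 37.2, 28.6 and 13.7 CPM in Ts65Dn and 73.9, 65.2 and 65.6 CPM in Ts65Dn;Brwd1+/-, a 2.72-fold fall (adjusted p = 0.00215). For both genes Ts65Dn lay below the other genotypes with no overlap. Amph, amphiphysin, was at 181, 181 and 163 CPM in euploid, 104, 86.8 and 35.7 CPM in Ts65Dn and 183, 154 and 160.4 CPM in Ts65Dn;Brwd1+/-. Snap91, the clathrin adaptor AP180, was at 346, 356 and 294 CPM in euploid, 192, 175 and 68.2 CPM in Ts65Dn and 342, 292 and 281 CPM in Ts65Dn;Brwd1+/-. Their falls in Ts65Dn vs. euploid were 2.31-fold (adjusted p = 0.00805) and 2.29-fold (adjusted p = 0.00913), again with Ts65Dn apart from both other groups.

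Synj1 took a larger share of the endocytosis RNA in both trisomic genotypes. Of the summed CPM of the 5 endocytosis genes, Synj1 made up 18.2 to 19.5% in euploid, 28.6, 29.9 and 42.9% in Ts65Dn replicates 1 to 3 and 24.8 to 27.1% in Ts65Dn;Brwd1+/-. The 3 ranges did not overlap. Itsn1 (ENSMUSG00000022957), an endocytic scaffold that is also triplicated, was at 255, 271 and 268 CPM in euploid, 346, 376 and 365 CPM in Ts65Dn and 354, 365 and 359 CPM in Ts65Dn;Brwd1+/-. It was 1.37-fold higher than euploid in Ts65Dn (adjusted p = 0.000802) and 1.36-fold higher in Ts65Dn;Brwd1+/- (adjusted p = 0.00121), and it did not share the low value of Ts65Dn replicate 3.

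**Figure D4:**
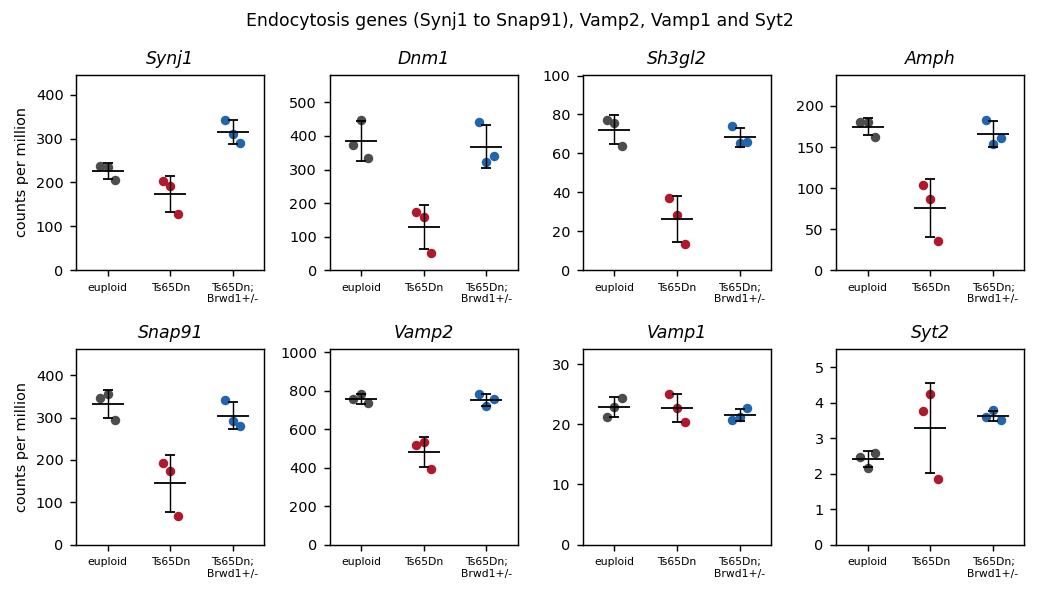
Points are CPM in each culture library, with the mean and SD of 3 libraries for each genotype, for the 5 endocytosis genes and for Vamp2, Vamp1 and Syt2. Synj1 is the one endocytosis gene whose Ts65Dn;Brwd1+/- libraries (289.5 to 343 CPM) all lie above the euploid libraries (206 to 236 CPM), and Vamp1 overlaps in all genotypes.

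A wider list held 70 other presynaptic genes. In Ts65Dn vs. euploid 45 were lower, 8 higher and 17 did not pass, with a median log2 fold change of -0.59, where 21.1% of all genes were lower and 25.6% higher. In Ts65Dn;Brwd1+/- vs. Ts65Dn 44 were higher and 5 lower (median 0.59), beside 27.6% and 30.5% of all genes. Against euploid 4 were higher and 5 lower in Ts65Dn;Brwd1+/- (median -0.03), beside 14% and 15.2%. The list was not tested against the 32 genes. Among the lowest log2 fold changes in Ts65Dn vs. euploid were those of Syt13 (-2.22, adjusted p = 4.93e-05), an atypical synaptotagmin, and Slc32a1 (-1.74, adjusted p = 0.000194), the vesicular GABA transporter. At the other end were Ston2 (0.89, adjusted p = 0.000165), the adaptor stonin 2 that sorts synaptotagmin, Synj2 (0.87, adjusted p = 0.00101), the broadly expressed paralogue of Synj1, and Syt12 (0.64, adjusted p = 0.00587). Synj2 was at 11.8 to 13.5 CPM in euploid, 18.5 to 25.5 CPM in Ts65Dn and 10.2 to 13.5 CPM in Ts65Dn;Brwd1+/-. Synj2 lies on proximal chromosome 17, the chromosome whose centromeric end the extra chromosome of Ts65Dn also carries. Whether Synj2 is itself in 3 copies was not tested.

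The members differed widely in level in euploid cultures. Per kilobase of exon, Vamp2 (199 ± 6.38 CPM per kb) and Syt11 (153 ± 9.23) were followed by Syp (102 ± 13.7), Cplx1 (102 ± 4.52), Sv2a (98.4 ± 7.59) and Syn1 (93.7 ± 12.8), all SD with n = 3. The last 4 of these did not differ beyond their spread. At the low end stood Rims2 (2.43 ± 0.0607), Vamp1 (2.25 ± 0.160), Syn3 (1.41 ± 0.0765) and Syt2 (0.315 ± 0.0302). Rims2 and Vamp1 differed by little more than the larger of their SDs, and Syn3 and Syt2 lay apart from them and from each other. The genes with the smallest changes in Ts65Dn thus included both the most abundant (Vamp2, Syt11) and some of the scarcest (Vamp1, Rims2, Syt2).

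Promoter sequences were available from RefSeq (GRCm38.p6) for 28 of the 34 genes, as 37 windows of 300 bases, from 250 before to 50 after an annotated start. Snap25, Vamp2, Syn3, Syt4, Syt7 and Rims2 had none. Windows were searched on both strands for the left and right parts of the element bound by REST, a repressor of neuronal genes outside neurons (TTCAGCACC and GACAGCGCC), for the cAMP response element (TGACGTCA) and for the GC box (GGGCGG). The left REST part was found for 3 of the 28 genes, Syn1, Unc13a and Ppfia3, and for 0.433% of all 27025 genes with a window (0.504% of those tested in the cultures). The right part was found for Unc13a alone (0.392% of all genes, 0.681% of those tested), and the cAMP response element for Syn1 and Sh3gl2 (2.03% of all genes, 3.44% of those tested). The GC box was found for 22 of the 28 genes (78.6%), against 38.2% of all genes and 66.5% of those tested in the cultures. Of all 32851 windows, the 4 motifs were in 0.371%, 0.326%, 1.79% and 35.7% in the same order. A match of letters is a description and not a binding site.

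The 4 windows with a REST part or a cAMP response element are shown because these letters are scarce among promoters. They read 5′ to 3′ on the strand of the gene, with those motifs in capitals.
Syn1, chrX:20920869-20921168, minus strand: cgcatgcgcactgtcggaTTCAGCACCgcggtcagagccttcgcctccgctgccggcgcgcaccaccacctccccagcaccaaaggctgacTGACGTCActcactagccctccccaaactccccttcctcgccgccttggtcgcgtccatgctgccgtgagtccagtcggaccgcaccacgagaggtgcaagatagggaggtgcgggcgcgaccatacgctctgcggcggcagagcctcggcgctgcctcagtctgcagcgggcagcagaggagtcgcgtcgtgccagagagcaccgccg
Unc13a, chr8:71671708-71672007, minus strand: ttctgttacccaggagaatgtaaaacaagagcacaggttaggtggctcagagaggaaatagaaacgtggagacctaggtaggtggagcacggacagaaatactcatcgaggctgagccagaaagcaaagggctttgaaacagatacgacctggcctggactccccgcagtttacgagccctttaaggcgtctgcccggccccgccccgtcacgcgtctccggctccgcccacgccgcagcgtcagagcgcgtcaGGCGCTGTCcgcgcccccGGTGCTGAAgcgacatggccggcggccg
Ppfia3, chr7:45366970-45367269, minus strand: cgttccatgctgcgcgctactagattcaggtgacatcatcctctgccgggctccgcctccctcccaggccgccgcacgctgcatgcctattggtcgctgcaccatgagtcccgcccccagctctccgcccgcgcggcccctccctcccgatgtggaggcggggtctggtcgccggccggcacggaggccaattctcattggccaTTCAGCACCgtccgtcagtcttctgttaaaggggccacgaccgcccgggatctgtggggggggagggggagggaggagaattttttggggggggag
Sh3gl2, chr4:85205206-85205505, plus strand: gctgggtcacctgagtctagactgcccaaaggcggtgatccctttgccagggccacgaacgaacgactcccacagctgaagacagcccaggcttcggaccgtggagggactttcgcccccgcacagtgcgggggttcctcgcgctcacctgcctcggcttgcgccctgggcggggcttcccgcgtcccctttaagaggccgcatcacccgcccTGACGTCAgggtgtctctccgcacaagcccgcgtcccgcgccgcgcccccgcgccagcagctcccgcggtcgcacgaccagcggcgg

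In Syn1 the left REST part began 232 bases and the cAMP response element 159 bases before the start. In Unc13a both REST parts lay within the last 50 bases of the window, on the opposite strand, and the windows of Ppfia3 and Sh3gl2 held their motifs 46 and 37 bases before the start. Synj1 is shown as the triplicated member, with its 7 GC boxes on either strand in capitals, the most found for any member.
Synj1, chr16:91011046-91011345, minus strand: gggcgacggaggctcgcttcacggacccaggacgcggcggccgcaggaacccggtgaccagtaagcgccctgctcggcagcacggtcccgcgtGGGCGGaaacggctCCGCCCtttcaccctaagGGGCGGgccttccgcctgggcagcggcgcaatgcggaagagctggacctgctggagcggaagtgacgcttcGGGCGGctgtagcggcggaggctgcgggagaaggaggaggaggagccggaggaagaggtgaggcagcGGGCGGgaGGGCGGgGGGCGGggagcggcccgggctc

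Open chromatin peaks in adult hippocampal neurons named most of the members in each genotype, and in euploid a peak lay on 18 of the 37 promoter windows. The share of all 32851 windows with such a peak was not counted, so the 18 cannot be set against it. The ATAC-seq peak lists were called on pooled samples, so they carry no replicate error and no test was possible. The euploid list of 15521 peaks held 57 peaks naming 27 of the 34 genes, the Ts65Dn list of 29195 peaks held 115 naming 30, and the Ts65Dn;Brwd1+/- list of 30244 peaks held 123 naming 31. Of the genes tested in the cultures 53.3%, 66% and 65.6% were named in the same lists. The members made up 0.367%, 0.394% and 0.407% of the peaks in each list, so their peak counts grew with the lists. Members were also longer than other genes, with a median span of 84.8 kb against 20.2 kb, and the part gene length has in these counts was not tested. Counting only peaks annotated to a promoter, 22, 30 and 30 members were named, against 50%, 61.5% and 60.7% of the genes tested.

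Of the 27 members named in the euploid list all were named in both other lists as well. Sv2a, Cplx1 and Cplx2 were named in the Ts65Dn and Ts65Dn;Brwd1+/- lists only, Vamp2 in the Ts65Dn;Brwd1+/- list only, and Syt2, Rab3a and Rims1 in none. The Cplx2 promoter window nevertheless carried a euploid ATAC peak, at 3.18-fold, that the list does not assign to Cplx2. The same window held peaks at 3.44-fold in Ts65Dn and 2.95-fold in Ts65Dn;Brwd1+/-. Of the 57 euploid peaks 56 overlapped a Ts65Dn peak by at least 1 base, against 96.7% of all euploid peaks. Conversely 53 of the 115 Ts65Dn peaks, or 46.1%, overlapped a euploid peak, against 49.9% of all Ts65Dn peaks. For 20 members a peak at the proximal promoter was present in all 3 lists. Taking the highest such peak of each gene, their median fold enrichment was 4.70 for euploid, 5.64 for Ts65Dn and 5.08 for Ts65Dn;Brwd1+/-, beside 4.604, 5.83 and 4.89 over all 7221 genes with such a peak in all 3 lists. The Ts65Dn value was above euploid for 15 of the 20 members and for 94% of all these genes, and the Ts65Dn;Brwd1+/- value for 14 of the 20 members and for 62.1%. Syt1 had 7.21, 7.09 and 7.50, Synj1 had 5.33, 5.48 and 5.28, and Syn1 had 4.79, 6.30 and 5.62 in the same order. In Erc2 (4.44, 6.47 and 4.42) and Stx1a (3.33, 5.51 and 4.35) the Ts65Dn value was the highest. None of these orders could be tested.

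SMARCA2/4 peaks at the members were nearly all in the euploid list. That list held 22667 peaks, of which 134 named 26 of the 34 genes, and 38.6% of the genes tested in the cultures were named in it. With promoter peaks only the counts were 23 of 34 members and 34.3% of the genes tested. The Ts65Dn list held 1290 peaks, 5 of them naming 4 members (4.14% of the genes tested were named), and the Ts65Dn;Brwd1+/- list 1873 peaks, 6 of them naming 4 members (4.89%). Members held 0.591%, 0.388% and 0.320% of the peaks in each list. Of the 134 euploid peaks 2 (1.49%) overlapped a Ts65Dn peak and 3 (2.24%) a Ts65Dn;Brwd1+/- peak, against 2.65% and 3.803% of all euploid peaks. Within gene bodies lay 78 of the 134 peaks, or 58.2%, against 27.1% of all peaks in the list. The full list also holds peaks at neither a promoter nor a gene body. The part the greater length of the members has in this share and in the SMARCA2/4 counts was not tested.

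**Figure D5:**
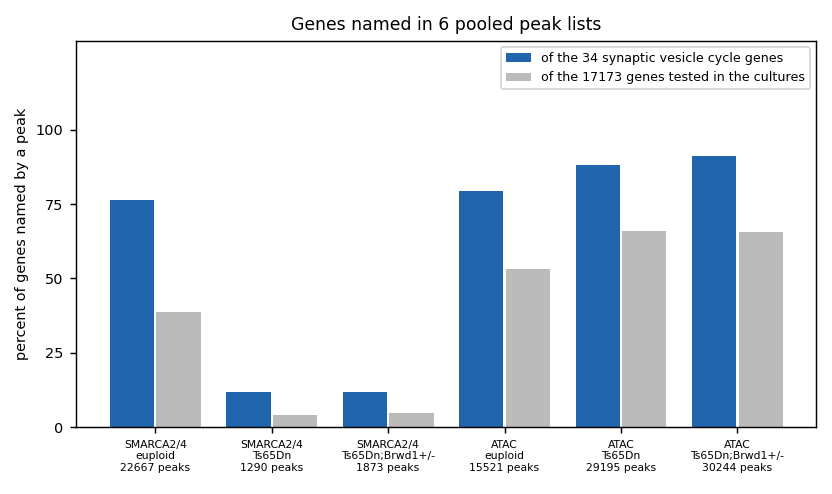
Bars give the percent of genes named by at least 1 peak in each of the 6 pooled peak lists, blue for the 34 vesicle cycle genes and grey for the 17173 genes tested in the cultures. Both bars drop together in the Ts65Dn and Ts65Dn;Brwd1+/- SMARCA2/4 lists (4 of 34 members each), which hold 1290 and 1873 peaks against 22667 in euploid.

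By role, the euploid SMARCA2/4 list named 9 of 14 vesicle protein genes, 6 of 7 SNAREs and cofactors, 6 of 8 active zone genes and all 5 endocytosis genes. Rimbp2 had the most peaks, 20, followed by Syt1 and Syt7 with 13 each, Erc2 with 11 and Dnm1 with 10. Among peaks naming a member the highest fold enrichment was 5.78 (q = 1.17e-07), at the proximal promoter of Syt1 (chr10:109010649-109010942), which also carried the highest euploid ATAC enrichment of the members. It was followed by 5.26 (q = 1.59e-06) at a Rimbp2 promoter (chr5:128877456-128877705). Synj1 had 2 euploid peaks, at 4.52-fold in the promoter region (chr16:91010738-91010795, q = 0.000193) and 3.64-fold in the gene body (chr16:90997822-90997946, q = 0.00875), and none in the other lists. Snap25 had 6 euploid peaks, 5 of them in the promoter region. Unc13a had 5, of which 3 overlapped the printed window and none the REST letters in it. No SMARCA2/4 peak in any list named Syn1, Synpr, Sv2a, Syt2, Rab3a, Vamp1, Rims1 or Ppfia3. On the printed Ppfia3 window there was nevertheless a euploid SMARCA2/4 peak, at 5.83-fold, that the list assigns to another gene.

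Few peaks named a member outside euploid. In Ts65Dn they lay at Amph, Nsf and Snap25 and at 2 places in Rimbp2, with fold enrichments of 3.09 to 3.98 and q values from 0.0903 to 1, so none passed a q of 0.05, where 1.17% of the genes tested were named by a peak at that threshold with an enrichment over 1.2 and 0.699% at a q under 0.01 with an enrichment over 2. Counting promoter peaks only, 1 member was named in Ts65Dn (2.6% of the genes tested) and 2 in Ts65Dn;Brwd1+/- (3.36%). In Ts65Dn;Brwd1+/- they lay at Amph, Dnm1 and Syt1 and at 3 places in Rimbp2. A q under 0.05 was reached by 2 of these 6, at Rimbp2 (chr5:128846656-128846736, 5.10-fold, q = 0.000155) and Dnm1 (chr2:32342749-32342841, 4.20-fold, q = 0.0187), with 2.67% of the genes tested named at that threshold and 1.64% at the stricter one, which kept 1 member. In the euploid list 117 of the 134 member peaks had a q under 0.05. Of the euploid SMARCA2/4 peaks at members 29, or 21.6%, overlapped a euploid ATAC peak, against 26.4% of all peaks in that list. The peaks came from adult hippocampus and the RNA from embryonic cultures, so the readouts differ in age and tissue and were not tested against each other.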

How the data were processed

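RNA from E16 forebrain cultures was sequenced in 9 libraries, and adult hippocampus gave 6 peak lists, 3 for SMARCA2/4 and 3 for open chromatin of neurons. The authors aligned reads to mm10 with HISAT2 and deposited raw counts per gene, with featureCounts and DESeq2 also named in their notes; 37.4 to 40.0% of counts per library sat on 5 lines that name no gene and were left out. The deposited peak lists hold, per the file headers, a fold enrichment (a ratio over input or background) and a q-value for each peak, called with MACS on pooled samples. The methods state a q filter of 0.05, but the SMARCA2/4 lists also hold peaks above it, and all were kept.

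Counts were fitted in edgeR 4.0.16 (R 4.3.3) with TMM factors, filterByExpr and the quasi-likelihood test over all 9 libraries with genotype as the only term. Benjamini-Hochberg adjustment covered all 17173 genes tested, at 0.05. CPM are counts scaled by each library's effective size, its total over genes adjusted by its TMM factor. Depth was 17270070 to 25892802 counts a library. For members with many counts, counting error is small beside the spread between libraries (biological coefficient of variation 0.101 in euploid, 0.162 in Ts65Dn, 0.0846 in Ts65Dn;Brwd1+/-). It is not small for Syt2, at 42 to 94 counts a library. The methods process embryos one by one, but the labels do not tie libraries to separate animals, so p-values measure the spread between these libraries, which may be technical. The procedure was tested on simulated data.

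The members, marker lists and other presynaptic list were chosen with earlier results of these data known. Per-library values were given for Synj1, for the 4 called members of each role with the largest change in Ts65Dn vs. euploid, and for members that passed in no comparison; Vamp2, Syt11, Rims2 and Cplx2 were added after their values were seen. Of the other list, Itsn1 and the 3 highest and 3 lowest called genes were named, except 1 that is not reported here. Peaks were assigned by the gene the lists name and intersected with bedtools 2.31.1. Promoter windows came from RefSeq (GRCm38.p6), whose coordinates are those of mm10. Alternatives covered scaling, filters, DESeq2 1.42.0, the libraries fitted, a replicate block, a residual factor, the threshold, each library left out, and peak thresholds, position and overlap, and, added after seeing the data, a sum without Vamp2 and Syt11. After group means were removed, same-numbered libraries correlated at 0.13 to 0.26 between euploid and Ts65Dn, all over 0.1, at -0.16 to 0.19 between euploid and Ts65Dn;Brwd1+/- and at -0.12 to 0.28 between Ts65Dn and Ts65Dn;Brwd1+/-. The labels do not say what the numbers stand for, so the fit has no block, and the blocked value is given beside the call it changes.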

Additional observations from a re-analysis of the deposited data

How the results depend on the processing

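The members called numbered 25 to 30 in Ts65Dn vs. euploid and 24 to 30 in Ts65Dn;Brwd1+/- vs. Ts65Dn under all alternatives run, always lower and then higher except Syt2 without Ts65Dn replicate 3. At 0.05, the share of all genes called ran from 23.2% to 52.2% and from 30% to 62.6% in these comparisons. In Ts65Dn;Brwd1+/- vs. euploid it ran from 14.9% to 38.9%. Each share was lowest without a filter on low counts and highest with a residual factor. In Ts65Dn;Brwd1+/- vs. euploid the count of 2 became 1 with RLE size factors, 5 with only these 2 genotypes fitted, 9 (5 higher, 4 lower) with a residual factor and 1 to 5 with 1 library left out (5 without Ts65Dn replicate 3). With the replicate block the counts were 30, 30 and 2, with Synj1 called in Ts65Dn vs. euploid (-0.40, adjusted p = 0.0138). Same-numbered libraries correlated over 0.1 in all 3 pairs of euploid with Ts65Dn, but not in the other 2 comparisons. Across 1632 refits of single members 1570 kept direction and side of the threshold, 30 lost the call, 18 gained it and 14 changed sign, none of these at an adjusted p under 0.05.

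Leaving out each library in turn gave log2 fold changes of -0.086 to 0.063 for Vamp1 in Ts65Dn vs. euploid (above 0 without Ts65Dn replicate 3), and in Ts65Dn;Brwd1+/- vs. Ts65Dn of -0.14 to 0.36 for Syt2 (below 0 without Ts65Dn replicate 3) and -0.15 to 0.000213 for Vamp1 (above 0 without Ts65Dn replicate 1). In Ts65Dn;Brwd1+/- vs. euploid the ranges were -0.076 to 0.014 for Vamp2, -0.20 to 0.069 for Unc13a, -0.24 to 0.061 for Dnm1, all above 0 without euploid replicate 2, -0.17 to 0.15 for Bsn and -0.066 to 0.23 for Ppfia3, both below 0 without euploid replicate 3 or Ts65Dn;Brwd1+/- replicate 1, and -0.29 to 0.044 for Pclo, above 0 without euploid replicate 1 or Ts65Dn;Brwd1+/- replicate 3. Vamp1 in Ts65Dn vs. euploid was at 0.012 with upper-quartile factors, and Vamp2 in Ts65Dn;Brwd1+/- vs. euploid at 0.000761 with at least 10 counts in every library.

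At a q under 0.05 and enrichment over 1.2, members named by a SMARCA2/4 peak fell from 4 to 0 in Ts65Dn and 2 in Ts65Dn;Brwd1+/-, at a q under 0.01 and enrichment over 2 to 0 and 1, and with promoter peaks only to 1 and 2. Euploid kept 20 to 24 of 26, and the ATAC counts stayed within 1.5 times. The cause was not tested. Peak lists were pooled, so they have no replicate error.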
